A study of Homo sapiens with 9 samples.

Results

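The genes described here encode receptor tyrosine kinases outside the RET, neurotrophin and ALK families: EGFR, ERBB2, ERBB3, ERBB4, KIT, PDGFRA, PDGFRB, FGFR1, MET and AXL. They were chosen by gene symbol from a table of 25084 genes, in which 9 of the 10 names were matched; ERBB4 is not analysed here. A filter of at least 1 CPM (the deposited unit, reads of a gene scaled to the reads of its library) in at least 3 of the 9 libraries kept 14495 genes and 8 of the receptors. ERBB3 stayed below 1 CPM in every library and is given by its values.

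LAN5, an established human neuroblastoma cell line with amplified MYCN, was electroporated with small interfering RNA (siRNA) and grown in complete medium for 72 h before total RNA was sequenced. The 3 groups of 3 libraries were given the control labelled siCTR, the siRNA labelled siMYCN_2 directed at MYCN (here siMYCN) or the one labelled siHAND2_3 directed at HAND2 (here siHAND2). All groups share the line, the medium and the electroporation, and each target is represented by 1 labelled siRNA, so an effect of the siRNA other than on its target cannot be told apart from one through the target. The series title asks which genes the MYCN and HAND2 transcription factors regulate in this line. Nothing in the labels says that replicates were separate cultures, so p-values measure only the spread between these libraries.

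Receptor tyrosine kinases are single-pass membrane proteins that dimerise when a growth factor binds outside the cell and then phosphorylate each other on tyrosines, to which adaptor proteins such as GRB2 and SHC1 and the regulatory subunits of PI3-kinase bind. The route leads to the RAS-ERK and PI3-kinase pathways. In neural crest and its tumours, KIT and its ligand stem cell factor, the ERBB receptors with neuregulins and the PDGF receptors are known from different cell types: PDGFRA and PDGFRB are widely used markers of mesenchymal cells, ERBB3 of the Schwann cell lineage, and AXL of mesenchymal tumour states.

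The low CPM values placed the depth between 21.1 and 32.7 megareads assigned to genes per library, so 1 read was worth 0.0306 to 0.0475 CPM. MYCN transcript averaged 1842 CPM in siCTR, 70.0% of that in siMYCN and 49.6% in siHAND2, and HAND2 transcript averaged 501 CPM in siCTR, 114% of that in siMYCN and 54.2% in siHAND2. Both knockdowns were thus partial at the transcript level, and MYCN was lower in the siHAND2 libraries than in the siMYCN libraries. Beside the noradrenergic genes of the line (sum of 9 markers, 1725 to 2332 CPM over the 9 libraries), the 4 endothelial markers summed to at most 2.03 CPM, the 3 white blood cell markers with a row to at most 0.724 CPM and the 4 Schwann cell markers with a row to at most 2.68 CPM in any library.

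To compare levels between receptors, CPM were divided by the length of the canonical transcript. In siCTR, PDGFRA stood highest at 18.98 ± 0.704 CPM per kb, followed by PDGFRB at 15.8 ± 0.539 and FGFR1 at 13.2 ± 0.126 (SD, n = 3 libraries each). ERBB2 (1.69 ± 0.117), KIT (1.45 ± 0.0981) and EGFR (1.22 ± 0.0263 CPM per kb) formed a second tier. MET measured 0.455 ± 0.0536, AXL 0.227 ± 0.0592 and ERBB3 0.0756 ± 0.0527 CPM per kb. The ranges of neighbours in this order did not overlap in siCTR, though ERBB2 and KIT overlapped in siMYCN. In siHAND2 EGFR (1.37 ± 0.106 CPM per kb) stood above KIT (1.08 ± 0.0955 CPM per kb). Among the genes with a transcript length, PDGFRA lay at the 82.5 percentile of length-scaled level in siCTR and at the 94.3 percentile in siHAND2, whereas MET lay at the 30.1 and 30.6 percentiles.

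**Figure D1:**
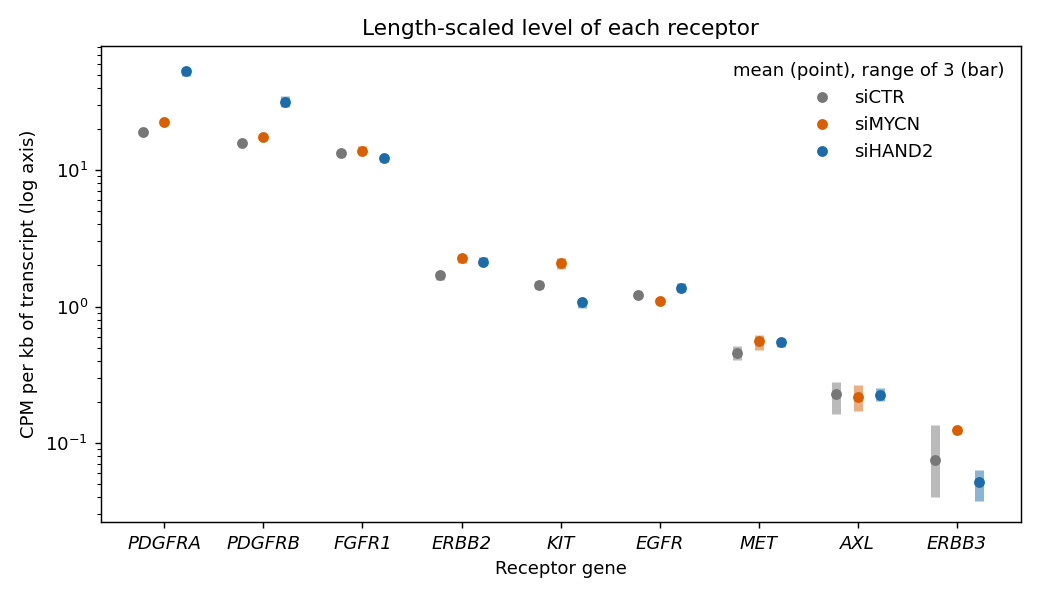
Mean level (points) and range over 3 libraries (bars) of each receptor gene in CPM per kb of canonical transcript, on a log axis, for siCTR (grey), siMYCN (orange) and siHAND2 (blue). PDGFRA, PDGFRB and FGFR1 lie above 11 CPM per kb in every group, and the other 6 genes below 2.5.

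The sum of the 9 receptors on the length scale changed in make-up mainly in siHAND2. PDGFRA held 35.8 ± 0.464% of it under siCTR, 37.5 ± 1.38% under siMYCN and 52.2 ± 2.71% under siHAND2 (SD, n = 3 libraries each). FGFR1 held 24.9 ± 0.749%, 23.1 ± 1.21% and 11.9 ± 0.722%, and KIT 2.72 ± 0.117%, 3.44 ± 0.395% and 1.06 ± 0.146%. Shares of a sum fall when another part rises, so the lower share of FGFR1 goes with the higher level of PDGFRA. PDGFRB kept between 28.1% and 32.0% of the sum in all 9 libraries.

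Across the 3 comparisons the 2 PDGF receptors, KIT and ERBB2 carried the calls against the control. In siMYCN against siCTR, 3 of the 8 tested receptors (ERBB2, KIT and PDGFRA, all higher) passed an adjusted p of 0.05 in limma with Benjamini-Hochberg adjustment over all genes, against 35.9% of all tested genes, so the share of the receptors was close to the background; higher calls made up 24.5% and lower calls 11.4% of all tested genes. In siHAND2 against siCTR, 4 of 8 passed (PDGFRA, PDGFRB and ERBB2 higher, KIT lower), against a background of 29.9% (18.1% higher, 11.8% lower). In siHAND2 against siMYCN, 5 of 8 passed (PDGFRA, PDGFRB and EGFR higher, KIT and FGFR1 lower), against 26.9% (11.4% higher, 15.5% lower). Counted without a test, the 3 libraries of one group lay wholly above or below the 3 of the other for 5, 6 and 5 of the 8 receptors in these comparisons, against 49.5%, 42.4% and 38.7% of all tested genes. The median log2 fold change of the 8 receptors was 0.18 in siMYCN and 0.18 in siHAND2, beside 0.06 and 0.04 for all genes tested. Both comparisons against siCTR share the same control libraries. With median-ratio scaling EGFR (-0.20, adjusted p = 0.0379) joined the calls in siMYCN and FGFR1 (-0.16, adjusted p = 0.0368) those in siHAND2, both lower, so the counts became 3 higher with 1 lower and 3 higher with 2 lower.

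**Figure D2:**
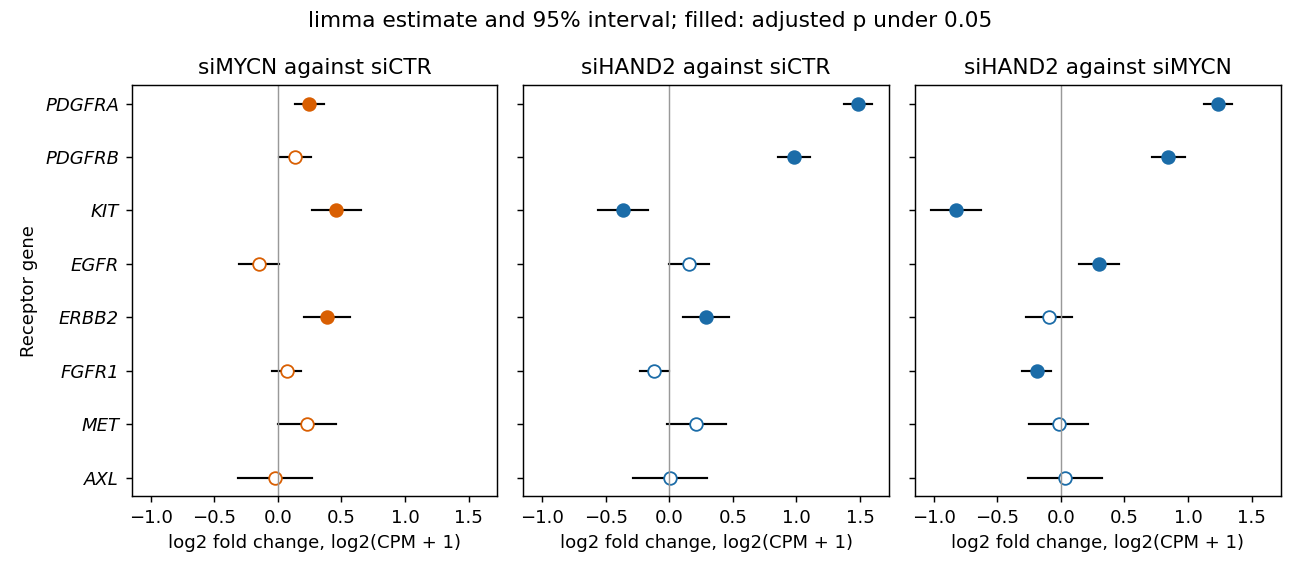
Estimated log2 fold change of log2(CPM + 1) of the 8 tested receptors (points) with 95% intervals (bars) from limma in the 3 comparisons, with filled points for an adjusted p under 0.05. PDGFRA and PDGFRB lie farthest to the right with siHAND2, and KIT lies right of 0 in siMYCN and left of 0 in siHAND2.

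The PDGF receptors bind the PDGF ligands, PDGFRA chiefly the A and C forms and PDGFRB the B and D forms. PDGFRA (chromosome 4, 54229280 to 54298245, plus strand, GRCh38) measured 125, 121 and 116 CPM under siCTR, 142, 148 and 142 under siMYCN and 355, 309 and 359 under siHAND2. Its span is crossed on the same strand by AC058822.1, which averaged 1.83, 1.43 and 1.85 CPM in the 3 groups. The 3 groups of PDGFRA values did not overlap, and the siHAND2 libraries lay more than 2-fold above every other library. The mean in siHAND2 was 2.82 times that in siCTR, which is 1.48 on the log2 scale (limma, standard error 0.05, adjusted p = 9.15e-12) and ranked 40 among the rises of the 14495 tested genes. In siMYCN the mean was 1.19 times that in siCTR (log2 fold change 0.25, standard error 0.05, adjusted p = 0.00176). Set against siMYCN, the siHAND2 libraries were higher by 1.24 (95% interval 1.12 to 1.35, adjusted p = 3.54e-11).

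PDGFRB (chromosome 5, 150113839 to 150155872, minus strand) measured 93.3, 88.5 and 87.6 CPM under siCTR, 105, 95.6 and 96.1 under siMYCN and 198, 175 and 164 under siHAND2. In the deposited CPM all siHAND2 libraries were above all others, and the siMYCN libraries lay just above siCTR without overlap. The siHAND2 mean was 1.99 times that in siCTR (log2 fold change 0.98, standard error 0.06, adjusted p = 3.84e-09, rank 105 among the rises). In siMYCN the log2 fold change of 0.14 (95% interval 0.01 to 0.26) had an adjusted p of 0.0913. That p fell below the threshold without siHAND2 replicate 1 (0.0377) or siHAND2 replicate 3 (0.0392), whose spread enters the shared fit, at the same fold change of 0.14, and when siCTR and siMYCN were fitted alone (0.0259). Other fits gave a smaller siMYCN change that did not pass. It was 0.08 with median-ratio scaling (limma, adjusted p = 0.386) and 0.08 with quantile normalization (adjusted p = 0.336). Without siMYCN replicate 1 it was 0.09 (adjusted p = 0.301). siHAND2 exceeded siMYCN by 0.85 (adjusted p = 1.56e-08). Per kb, PDGFRA exceeded PDGFRB 1.19 to 1.22 times in the siCTR libraries, 1.21 to 1.38 times in siMYCN and 1.58 to 1.96 times in siHAND2, so the alpha receptor rose more than the beta receptor in each siHAND2 library relative to siCTR.

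Several fibroblast or stromal markers rose in siHAND2 as the PDGF receptors did, but not all followed the receptors over the 3 groups. COL1A2 averaged 1.66, 4.42 and 15.9 CPM in siCTR, siMYCN and siHAND2. COL3A1 rose about as far in siMYCN as in siHAND2 (1.42, 4.19 and 3.84 CPM), and COL5A1 was higher only in siHAND2 (5.41, 5.15 and 11.6 CPM). Of 5 tested markers that reached 1 CPM in a siCTR library, 4 rose in siHAND2 (COL1A2, COL3A1, COL5A1 and LUM) and THY1 fell, against 18.1% of all genes higher and 11.8% lower. In siMYCN 4 of the 5 rose (COL1A2, COL3A1, LUM and THY1) and 0 fell, against 24.5% and 11.4%. DCN, a small matrix proteoglycan, averaged 0.431 CPM under siCTR, 1.296 under siMYCN and 11.02 under siHAND2, so it passed the filter only through the knockdown libraries and is left out of these counts. The sum over the 8 stromal markers with a row, DCN and POSTN included, was 79.5 to 89.5 CPM in siCTR, 109 to 114 in siMYCN and 147 to 165 in siHAND2. THY1 was its largest part in siCTR (mean 65.4 CPM) and averaged 56.8 CPM in siHAND2, while LUM went from 9.15 to 54.7 CPM. The sum therefore mostly follows these genes. COL1A1, the partner chain of COL1A2 in type I collagen, stayed below the filter and averaged 0.720, 0.507 and 0.363 CPM in siCTR, siMYCN and siHAND2, while POSTN, also below it, averaged 0.0159, 0.0129 and 0.426 CPM. FAP is not analysed here. Whether a few cells of another type or a change in all cells gave these reads was not tested, and in bulk RNA more cells of a type cannot be told apart from more RNA per cell. Of the noradrenergic markers, DBH, which makes noradrenaline, fell from 263 ± 18.2 to 130 ± 5.65 CPM in siHAND2 (-1.01, adjusted p = 6.84e-10), while the neuronal gene STMN2 rose from 177 ± 11.2 to 343 ± 23.9 CPM (0.95, adjusted p = 1.81e-09). Of the 9 noradrenergic markers 3 rose and 2 fell in siHAND2, where 29.9% of all genes were called, and 7 rose and 0 fell in siMYCN, where 35.9% were.

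BMF, SNED1, NYNRIN and PGM5 were closest to the PDGF receptors over the 9 libraries, by the root mean square difference of log2(CPM + 1) after centring on siCTR, over the 11195 genes that averaged 5 CPM or more. Closest to PDGFRA were BMF, a pro-apoptotic BCL2 family gene (difference 0.09; log2 fold changes 0.24 in siMYCN and 1.51 in siHAND2), and SNED1, a matrix protein gene (0.11; 0.29 and 1.44). Closest to PDGFRB were NYNRIN (0.08; 0.25 and 0.95) and PGM5 (0.10; 0.21 and 1.10). A difference of 0.85 for PDGFRA and 0.57 for PDGFRB was the median over all genes compared. The 3 groups set this likeness, so it adds little beyond the fold changes.

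KIT, the receptor for stem cell factor, moved in opposite directions in the knockdowns. KIT (chromosome 4, 54657918 to 54740715, plus strand) measured 7.98, 7.37 and 6.98 CPM under siCTR, 9.67, 11.8 and 10.5 under siMYCN and 4.999, 5.81 and 5.88 under siHAND2. The 3 groups did not overlap. The mean was 1.43 times that of siCTR in siMYCN (0.46 on the log2 scale; limma, standard error 0.09, adjusted p = 0.000946) and 0.748 times in siHAND2 (-0.36, standard error 0.09, adjusted p = 0.00637). The difference between the knockdowns was -0.83 (95% interval -1.02 to -0.63, adjusted p = 3.39e-06). These calls held under all alternatives tried and in each fit that left out 1 library. KITLG, which encodes stem cell factor, measured 37.9, 33.3 and 36.1 CPM under siCTR, 26.5, 26.5 and 26.9 under siMYCN and 37.8, 38.5 and 41.3 under siHAND2. The ligand fell in siMYCN (-0.41, standard error 0.06, adjusted p = 4.49e-05), where its receptor rose, and had a log2 fold change of 0.13 in siHAND2 (adjusted p = 0.103), where its receptor fell.

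**Figure D3:**
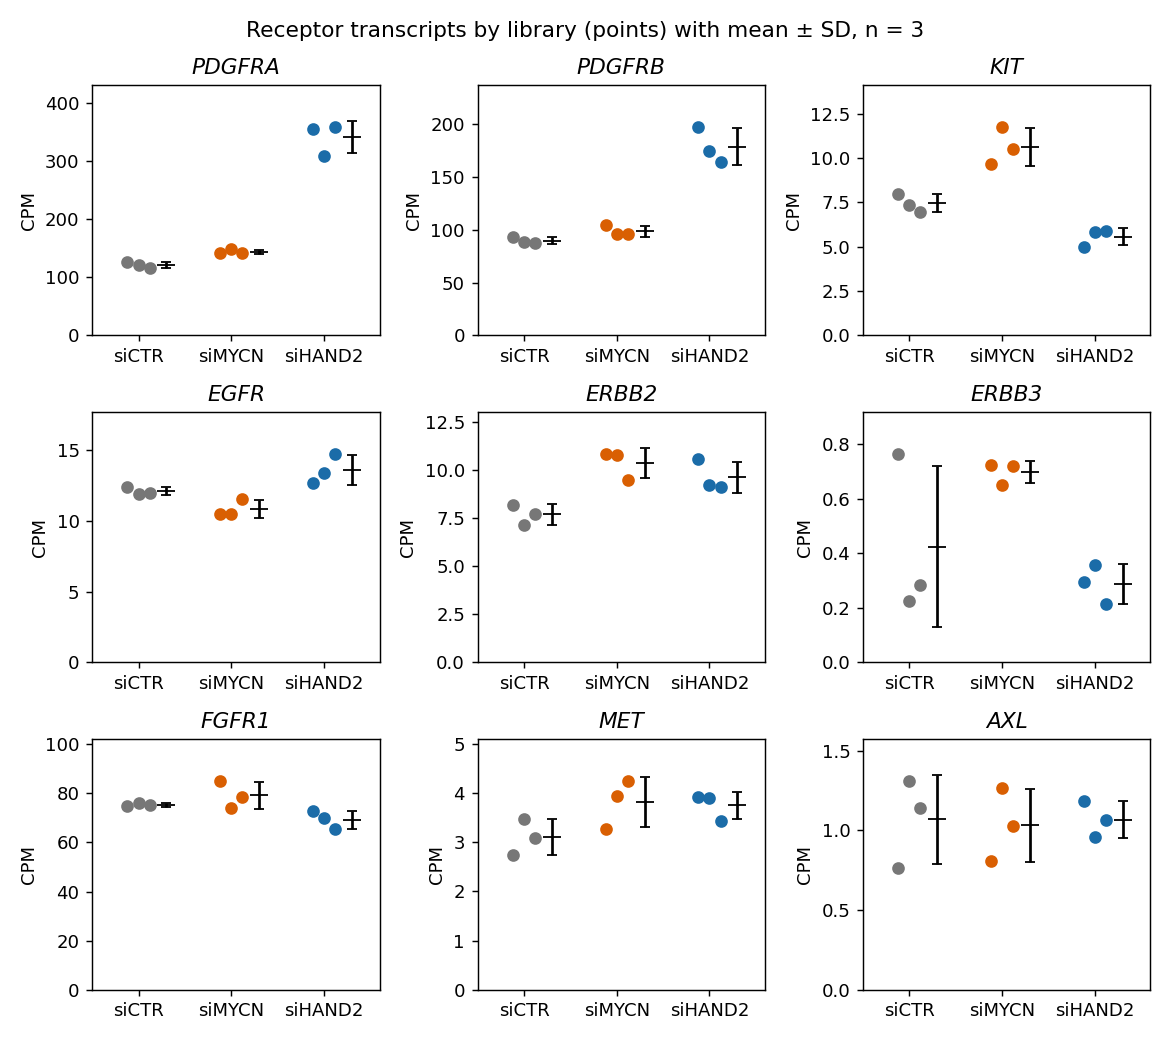
CPM of each of the 9 receptor genes in every library (points) with the group mean ± SD at the right (n = 3 libraries each), on linear axes that start at 0 and differ between panels. PDGFRA and PDGFRB stand apart in siHAND2, KIT is high in siMYCN and low in siHAND2, and AXL overlaps in all groups.

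PDGFRA and KIT are neighbours on chromosome 4, with 360 kb between the end of PDGFRA and the start of KIT. A window of 1500 kb on each side of the PDGFRA start, chosen after the values were seen, held 25 genes of the table, of which 12 were tested. Apart from PDGFRA and KIT, which prompted the window, 10 were tested. Of these, RASL11B and FIP1L1 were higher and SCFD2 was lower in siHAND2, and only SCFD2 was called in siMYCN, where it was lower, against 29.9% and 35.9% of all genes called. CHIC2, the tested gene with the nearest start on the side of lower coordinates, had log2 fold changes of 0.04 in siMYCN and -0.02 in siHAND2, neither past the threshold. KDR, the receptor gene beyond KIT, averaged 0.0794 CPM in siCTR and 0.0604 CPM in siHAND2, too few reads to test. RASL11B, a small GTPase gene and the farthest of the tested genes on the side of lower coordinates, went from 15.7 to 28.6 CPM in siHAND2 (0.83, adjusted p = 1.26e-07).

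**Figure D4:**
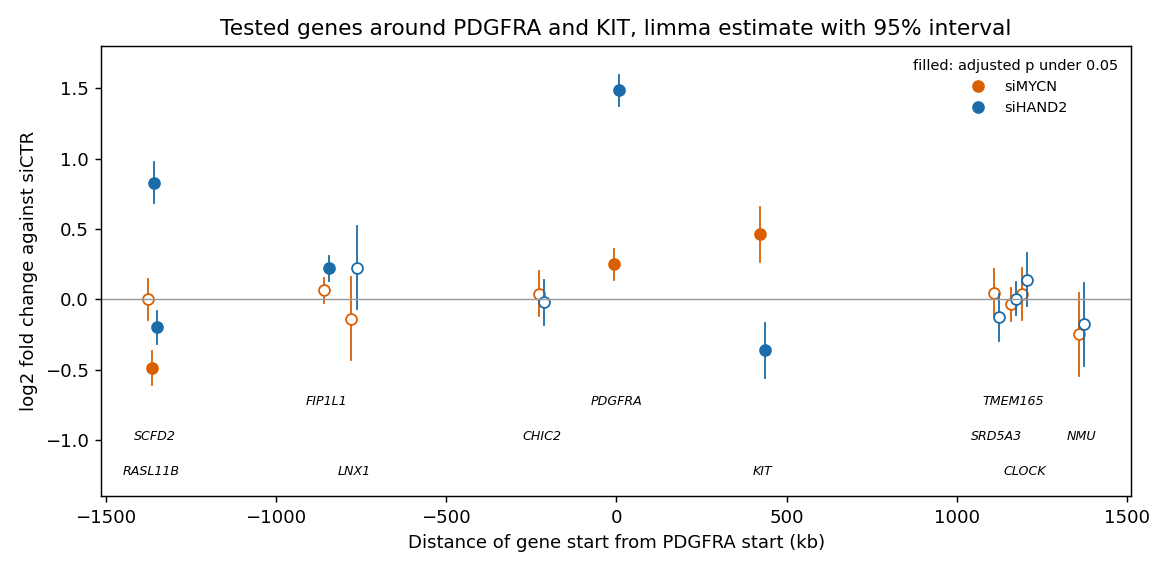
Log2 fold change against siCTR (points, with 95% intervals from limma) of 11 tested genes around PDGFRA, by the distance of their start from the PDGFRA start in kb, for siMYCN (orange) and siHAND2 (blue), filled for an adjusted p under 0.05. AC058822.1, whose span starts beside FIP1L1 and crosses PDGFRA, is left out; PDGFRA and KIT move apart in siHAND2 and both lie above 0 in siMYCN.

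The stretches just upstream of the 3 receptor genes with the largest changes in siHAND2 are shown because MYCN and HAND2 belong to the helix-loop-helix factors, which bind the E-box CANNTG (read the same on both strands). The windows are from RefSeq (GRCh38.p14), on the strand of the gene, and end before the first annotated base of the gene in either annotation. Capitals mark CANNTG.
PDGFRA, chr4:54229043-54229279, plus strand: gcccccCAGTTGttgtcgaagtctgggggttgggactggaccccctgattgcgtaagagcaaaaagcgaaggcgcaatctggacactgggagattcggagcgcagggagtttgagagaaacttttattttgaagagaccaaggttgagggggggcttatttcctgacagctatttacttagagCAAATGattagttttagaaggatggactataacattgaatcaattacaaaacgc
PDGFRB, chr5:150155873-150156095, minus strand: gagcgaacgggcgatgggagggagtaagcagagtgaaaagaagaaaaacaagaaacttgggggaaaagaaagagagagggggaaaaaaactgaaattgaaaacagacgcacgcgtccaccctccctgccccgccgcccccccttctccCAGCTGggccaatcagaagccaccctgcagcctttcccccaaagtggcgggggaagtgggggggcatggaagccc
KIT, chr4:54657707-54657917, plus strand: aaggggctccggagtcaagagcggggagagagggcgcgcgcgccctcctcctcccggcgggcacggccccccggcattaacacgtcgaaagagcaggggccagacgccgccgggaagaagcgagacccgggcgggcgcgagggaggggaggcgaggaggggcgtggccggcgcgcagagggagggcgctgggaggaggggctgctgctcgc

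The PDGFRA window printed held 2 such E-boxes, the PDGFRB window 1 and the KIT window 0. Among all RefSeq windows cut to the same lengths, 60.21%, 58.25% and 56.51% held at least 1, so a match here is common. The MYC-type E-box, CACGTG, was in none of the 3 windows and in 5.94%, 5.493% and 5.123% of all windows cut to these lengths. Another form, CATCTG read on either strand, was also in none of them and in 11.66%, 11.08% and 10.6% of all windows so cut. Both are special cases of the general motif. The windows differ in base composition, with 46.4% G and C for PDGFRA, 58.3% for PDGFRB and 76.3% for KIT. PDGFRA has another RefSeq start, whose 250-base upstream window (chr4:54233710-54233959, not printed) has 64% G and C and held 1 CANNTG, 0 CACGTG and 0 CATCTG. The table gave a promoter for 8 of the 10 names; ERBB3 and FGFR1 are named only.

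The EGF receptor family bind EGF-like growth factors and neuregulins, with ERBB2 having no ligand of its own and ERBB3 little kinase activity. EGFR (chromosome 7, 55019017 to 55211628, plus strand) measured 12.4, 11.9 and 11.96 CPM under siCTR, 10.4, 10.5 and 11.5 under siMYCN and 12.6, 13.4 and 14.7 under siHAND2. The siMYCN libraries lay below and the siHAND2 libraries above all siCTR libraries, which gave log2 fold changes of -0.15 (adjusted p = 0.129) and 0.15 (adjusted p = 0.130), neither past the threshold. The fall in siMYCN passed with median-ratio scaling (-0.20, limma, adjusted p = 0.0379) and with quantile normalization (-0.23, adjusted p = 0.0256). The knockdowns differed from each other by 0.30 (standard error 0.07, limma, adjusted p = 0.00578), and this call held under every alternative and in every fit that left out 1 library.

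ERBB2 (chromosome 17, 39687914 to 39730426, plus strand) measured 8.22, 7.16 and 7.75 CPM under siCTR, 10.9, 10.8 and 9.49 under siMYCN and 10.6, 9.24 and 9.14 under siHAND2. Each knockdown library lay above each siCTR library. ERBB2 was higher by 0.39 on the log2 scale in siMYCN (limma, standard error 0.08, adjusted p = 0.0021) and by 0.29 with siHAND2 (adjusted p = 0.0165). The knockdowns did not differ beyond the spread (-0.10, 95% interval -0.28 to 0.08). The siHAND2 call was lost without siCTR replicate 2 (0.24, adjusted p = 0.0815) and without siHAND2 replicate 1 (0.23, adjusted p = 0.076). The annotated span of ERBB2 overlaps MIEN1 and PGAP3 on the other strand, and the use of strand in counting is not given in the sources used here. PGAP3 rose in siMYCN too, from 4.11 to 5.67 CPM (0.38, adjusted p = 0.0114), and measured 5.24 CPM in siHAND2, while MIEN1 measured 14.7, 16.0 and 14.9 CPM in the 3 groups. Their part in the ERBB2 values was not tested.

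ERBB3 (chromosome 12, 56076799 to 56103505, plus strand) measured 0.764, 0.225 and 0.285 CPM under siCTR, 0.725, 0.652 and 0.720 under siMYCN and 0.296, 0.359 and 0.213 under siHAND2, which stood for about 6 to 25 reads per library. The first siCTR library lay above the siMYCN libraries and the other 2 among the siHAND2 libraries. With no filter on low values, siHAND2 and siMYCN differed by -0.40 (standard error 0.11, limma, adjusted p = 0.029), and neither comparison against siCTR passed (adjusted p = 0.125 and 0.531).

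FGFR1, MET and AXL bind fibroblast growth factors, hepatocyte growth factor and GAS6, in that order. FGFR1 (chromosome 8, 38400215 to 38468834, minus strand) measured 74.7, 76.1 and 75.2 CPM under siCTR, 85.1, 74.1 and 78.4 under siMYCN and 72.7, 69.9 and 65.4 under siHAND2. The siHAND2 libraries were all below the siCTR libraries, with a log2 fold change of -0.12 (limma, adjusted p = 0.107). The siMYCN libraries overlapped siCTR (0.07, adjusted p = 0.344). The knockdowns differed by -0.19 (adjusted p = 0.0156), a call lost without siMYCN replicate 1 (-0.14, adjusted p = 0.099), without siHAND2 replicate 3 (-0.15, adjusted p = 0.0506), with quantile normalization (-0.15, adjusted p = 0.0519) and with no intensity trend (adjusted p = 0.0527).

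MET (chromosome 7, 116672196 to 116798386, plus strand) measured 2.75, 3.48 and 3.08 CPM under siCTR, 3.26, 3.95 and 4.25 under siMYCN and 3.91, 3.90 and 3.44 under siHAND2. The groups overlapped, and the log2 fold changes of 0.23 (95% interval -0.0007 to 0.46, adjusted p = 0.113) and 0.21 (-0.02 to 0.44, adjusted p = 0.154) did not pass the threshold. Without siMYCN replicate 1 the first was 0.32 and passed (limma, adjusted p = 0.0491). It passed in no other alternative, where it was as low as 0.12 and its adjusted p as high as 0.339. HGF, the ligand of MET, was near the detection limit outside siHAND2: it measured 0.673, 0.374 and 0.570 CPM under siCTR, 0.242, 0.537 and 0.617 under siMYCN and 3.52, 2.39 and 3.26 under siHAND2. The siHAND2 libraries lay above all others, with a mean of 3.06 CPM against 0.539 in siCTR. HGF passed the filter only through those 3 libraries, so this is given as a description with no test.

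AXL (chromosome 19, 41219223 to 41261766, plus strand) measured 0.764, 1.31 and 1.14 CPM under siCTR, 0.806, 1.27 and 1.03 under siMYCN and 1.18, 0.956 and 1.06 under siHAND2, or about 20 to 36 reads per library. The groups overlapped. The log2 fold changes of -0.02 (95% interval -0.32 to 0.27) and 0.01 (-0.29 to 0.30) leave room for changes of that size in either direction, and their signs switched between alternatives. Its ligand GAS6 averaged 24.2, 23.8 and 20.8 CPM in the 3 groups and passed in neither comparison against siCTR.

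Of 35 listed ligands of the receptors, 18 had a row and 11 passed the filter, HGF only through siHAND2. Of the other 10, in siMYCN 2 rose (NRG1 and NRG3, neuregulins) and 2 fell (KITLG and FGF2), a share of 40.0% close to the 35.9% of all genes, and in siHAND2 0 rose and 1 fell (NRG2, -0.31), or 10.0% against 29.9%. NRG1 rose by 0.21 (adjusted p = 0.0083) and FGF2 fell by 0.22 (adjusted p = 0.0102) in siMYCN, and NRG3 averaged 1.23 CPM in siCTR and 1.87 CPM in siMYCN. The siMYCN count dropped to 2 without siCTR replicate 3, where NRG1 (0.17) and NRG3 (0.26) lost their calls; FGF2 lost its call without siCTR replicate 1 (-0.18), and NRG3 also without siMYCN replicate 2 (0.37) or 3 (0.32). NRG2 lost its siHAND2 call without siCTR replicate 1 or 2 or siHAND2 replicate 2 (-0.31, -0.27 and -0.25). In siMYCN 1 ligand was higher and 2 were lower with median-ratio scaling and likewise with quantile normalization. NRG3 lost its call with both (0.33 and 0.30) and with no filter on low values (0.37). In siHAND2 4 ligands were lower with median-ratio scaling and 3 with quantile normalization, HGF not among them. More ligands other than HGF also passed in siHAND2 without siCTR replicate 3. PDGFB, PDGFC and the EGFR ligands EGF, TGFA and AREG are not analysed here, and PDGFA averaged 0.117 CPM in siCTR and 0.144 CPM in siHAND2. PDGFD, the one tested PDGF ligand, averaged 1.36 CPM in siCTR and 1.32 CPM in siHAND2. Without HGF the median log2 fold change of the ligands was 0.03 in siMYCN and -0.03 in siHAND2, beside 0.06 and 0.04 for all genes.

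All 26 adaptors and proximal effectors with a row, of 27 listed, were tested. In siMYCN 14 rose and 0 fell, so 53.8% were called, against 35.9% of all genes in either direction and 24.5% higher. In siHAND2 9 rose and 0 fell, a share of 34.6% near the 29.9% of all genes, of which 18.1% were higher calls and 11.8% lower. Median-ratio scaling gave 11 higher and 0 lower in siMYCN, and 8 higher and 2 lower in siHAND2. In siMYCN the smallest p-values were those of SHC1, an adaptor that links receptors to RAS (from 63.0 ± 2.27 to 99.4 ± 3.80 CPM, 0.65, adjusted p = 9.31e-08), the kinase SRC (0.62), the docking protein GAB2 (0.55) and the RAS exchange factor SOS2 (0.39). In siHAND2 they were PIK3R1, a regulatory subunit of PI3-kinase (from 48.7 ± 2.71 to 73.6 ± 1.60 CPM, 0.59, adjusted p = 1.43e-07), PIK3R3 (0.48), SOS2 (0.38) and GAB1 (0.44). Most of these genes were called higher in both knockdowns. SHC1 (0.27) and SRC (0.22) also rose in siHAND2, and PIK3R1 (0.36) and PIK3R3 (0.20) also rose in siMYCN. GAB1 had a log2 fold change of 0.02 in siMYCN and GAB2 one of -0.07 in siHAND2, and siHAND2 differed from siMYCN by 0.42 (adjusted p = 7.61e-05) for GAB1 and -0.62 (adjusted p = 1.39e-07) for GAB2. The median log2 fold change of the list was 0.17 in siMYCN and 0.11 in siHAND2, beside 0.06 and 0.04 for all genes.

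Of 20 listed regulators of receptor attenuation, 19 had a row and 14 were tested. In siMYCN 4 were higher and 0 lower (28.6% called, against 35.9% of all genes). In siHAND2 4 were higher and 1 lower (35.7%, against 29.9%), so both shares were near the background. The list holds ubiquitin ligase genes and a deubiquitinase gene, so its counts give no direction of attenuation. ERRFI1, an inhibitor of EGFR family kinases, averaged 6.03 CPM in siCTR, 7.71 under siMYCN (0.31, adjusted p = 0.0163) and 7.97 under siHAND2 (0.35, adjusted p = 0.009). The ubiquitin ligase genes CBLB (0.22) and CBL (0.17) and the phosphatase gene PTPN12 (0.16) also rose in siMYCN. In siHAND2 the deubiquitinase gene USP8 (0.28), SH3KBP1 (0.25) and again CBL (0.16) rose and LRIG3 fell by 0.26. The siMYCN count was 1 without siCTR replicate 2 or siMYCN replicate 3 and 2 without siCTR replicate 3. CBL and PTPN12 lost their calls in each of these fits (0.11 to 0.18), PTPN12 also without siMYCN replicate 2 (0.15), and ERRFI1 lost its call without siCTR replicate 2 (0.25) or siMYCN replicate 3 (0.23). With quantile normalization the count was 2, 1 higher and 1 lower, and with median-ratio scaling 2 were higher and 1 lower. The siHAND2 count was 3 without siCTR replicate 2, where ERRFI1 lost its call (0.30).

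Among 42 further receptor tyrosine kinases listed, 36 had a row and 23 were tested. In siMYCN 10 rose and 3 fell, 56.5% against 35.9% of all genes called, and in siHAND2 5 rose and 4 fell, 39.1% against 29.9%. INSRR, the insulin receptor-related receptor, averaged 1.12 CPM in siCTR, 2.56 under siMYCN (0.74, adjusted p = 0.000102) and 2.53 under siHAND2 (0.73, adjusted p = 0.000141). The ephrin receptor gene EPHA2 averaged 14.1, 9.76 and 9.696 CPM and was lower in both (-0.49 and -0.51). INSR (0.30) and AATK (0.44) also rose in siMYCN. The collagen receptor gene DDR2 rose in siHAND2 (from 169 ± 1.48 to 212 ± 8.32 CPM, 0.32, adjusted p = 2.72e-05) and fell in siMYCN (-0.13, adjusted p = 0.0218). EPHB2 rose in siHAND2 (0.38) and in siMYCN (0.24), with no call between the knockdowns (0.14). The siMYCN count was 7 without siCTR replicate 1, 8 without siMYCN replicate 3 and 9 (6 higher, 3 lower) with median-ratio scaling.

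**Figure D5:**
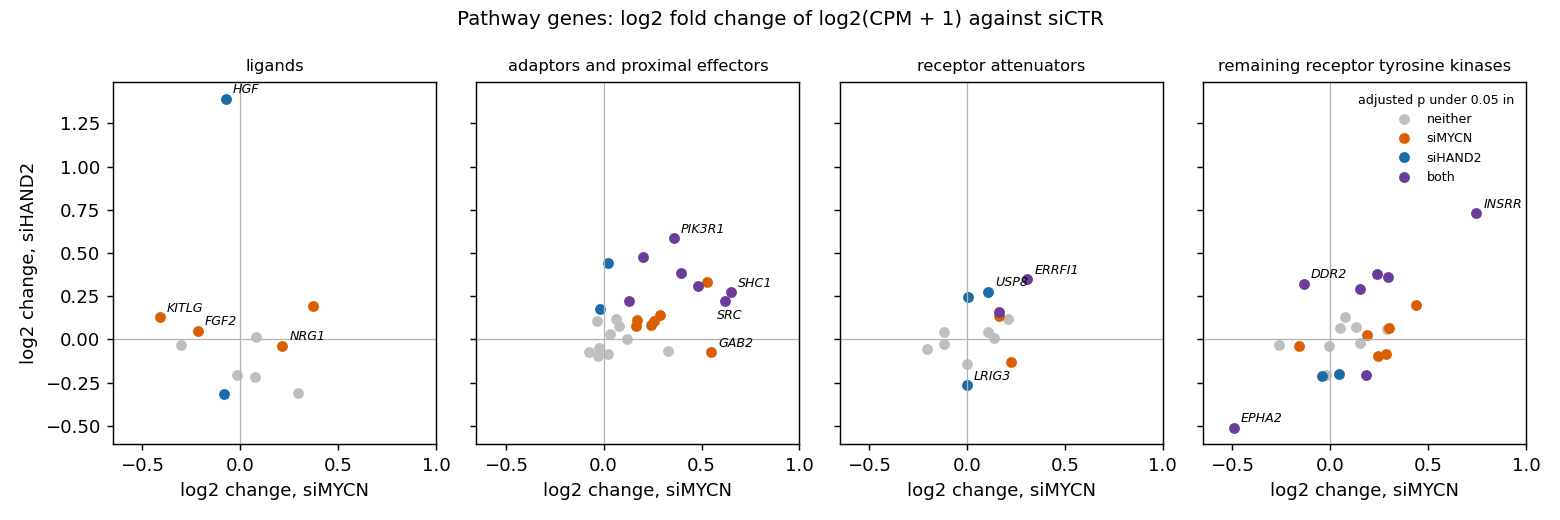
Log2 fold change against siCTR in siMYCN (horizontal) and siHAND2 (vertical) of the tested genes of 4 lists, coloured by where the adjusted p was under 0.05. Both axes share the siCTR libraries. HGF, which passed the filter only through siHAND2, stands apart on the siHAND2 axis, and its colour is not read as a call. SHC1 and SRC lie to the right, and EPHA2 lies low on both axes.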

How the data were processed

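The authors deposited 1 table of CPM values per gene and library. Reads were aligned with STAR 2.5.1 and Partek was used, per the submitters' processing notes, which also name the builds hg19 and GRCh37 without a role. The positions in the table were within 5000 bases of a GRCh38 start for 91.4% of 18111 symbols and of a GRCh37 start for 5.56%, so they are printed as GRCh38. The counting rule, its use of strand and the annotation are not given in the sources used here. The deposited CPM columns sum to 1000002.4 to 1000002.6 with a constant of 0.0001 in every value. Depth was read from the steps of low values, of which 78.8% to 80.1% were whole reads within 0.02 of a step, too few for a count model.

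log2(CPM + 1) of 14495 genes was fitted with limma 3.58.1 (R 4.3.3; all 9 libraries, 1 mean per group, intensity trend), with two-sided tests and Benjamini-Hochberg adjustment over all genes per comparison at 0.05. This scale understates changes of genes near 1 CPM. Transcript lengths came from GENCODE by symbol. Older gene names were used only where they are not now another gene's symbol. Named genes were all members, up to 4 called genes with the smallest p per list and comparison, and the 2 nearest patterns of members with a called change of at least 0.5. Members and lists were chosen with earlier results of these data known. Intervals and read numbers cover the spread between libraries or counting error only; PCR copies are not separate molecules. Alternatives are given under the dependence on processing. No 2 libraries of a group agreed within counting noise (chi-square per degree of freedom 3.53 to 12.4).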

Additional observations from a re-analysis of the deposited data

How the results depend on the processing

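Alternatives tried were a pseudocount of 0.1 or 5, a filter of 5 CPM or none, median-ratio scaling, quantile normalization, the 2 groups of a comparison alone, no intensity trend, precision weights, the replicate number as a block and each of the 9 libraries left out. Of 450 recomputed log2 fold changes of the receptors, 423 kept their direction and side of the threshold, 6 lost a call, 8 gained one and 13 changed sign. All 13 belonged to AXL and MET, which passed in no comparison with all libraries. AXL in siMYCN ran from -0.135 to 0.0595 when 1 library was left out, and was above 0 without siCTR replicate 2 or 3 or siMYCN replicate 1. AXL in siHAND2 was -0.0179 with median-ratio scaling and -0.0749 with quantile normalization, and ran from -0.106 to 0.0885 when 1 library was left out. Between the knockdowns AXL was -0.000486 with quantile normalization and ran from -0.0534 to 0.110 when 1 library was left out, and MET from -0.103 to 0.0472. The cause was not tested. The numbers of receptors called moved between 3 and 4 in siMYCN, 3 and 5 in siHAND2 and 4 and 6 between the knockdowns. Without 1 library the genes called over the whole table ranged from 4017 to 5845 in siMYCN, 3079 to 4341 in siHAND2 and 2923 to 3992 between the knockdowns. The share of called genes that were higher was 68.3% in siMYCN and 60.6% in siHAND2 as deposited, and 50.6% and 45.6% with median-ratio scaling. The filter of 5 CPM left AXL and MET out.

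The labels do not say what a replicate number shares, and the libraries were not treated as paired: the correlation of deviations of same-numbered libraries ran from -0.0399 to 0.305, and 6 of 9, not all, were over 0.1. A library correlated best with its own number in 15 of 18 comparisons with another group, a hint from the data of some sharing that replicate 2 does not show throughout. With the replicate block, 5895, 5089 and 4689 genes (without it 5209, 4339 and 3892) were called in siMYCN, in siHAND2 and between the knockdowns. The receptors called were then 4, 4 and 5, and more ligands other than HGF passed in siHAND2. PDGFRB passed in siMYCN with the block (0.14, adjusted p = 0.0138). Depth limits ERBB3 and AXL most.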
